A study of Mus musculus with 14 samples.

Results

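The data described here are the hippocampal transcriptomes of 7 wild-type (WT) mice, taken as a baseline and as a record of how far untreated mice of 1 group differ from each other. The members are the 14686 of 24421 gene rows in the count table with at least 10 counts in at least 5 of the 7 WT mice. They make up 60.1% of the rows and hold 99.9% of all counts; 4911 rows had no count in any WT mouse and 4824 had counts but fell short of the rule. The series also holds 7 LPAR2-/- mice, which lack a receptor for lysophosphatidic acid (LPA), and their values are used in a closing description of variation only.

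The WT mice were untreated males of the strain labelled 129.C57Bl6. By the study's methods these controls carry both C57BL/6 and 129/SvJ alleles, and the mutants were bred apart from them. One RNA-seq library was made per mouse from hippocampus, with ribosomal RNA removed according to the study's methods, and reads were counted on the reverse strand. The label gives an age of 10 to 12 weeks, whereas the design text of the series calls the animals middle-aged to aged, so the age is not settled. The study's own account speaks of dentate gyrus in places and of hippocampus in others.

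The hippocampus passes signals from dentate granule cells through mossy fibres to CA3 pyramidal cells and from there through Schaffer collaterals to CA1, with interneurons, astrocytes, oligodendrocytes, microglia and vessels around them. Granule and pyramidal cells release glutamate, and most interneurons release GABA. A dissected piece of hippocampus also carries some of the meninges on its surface and some of the choroid plexus, fimbria and neighbouring tissue at its edges. Immediate early genes such as Fos and Arc are switched on within minutes of neuronal firing and are known to follow the last experience of an animal.

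Libraries held between 16373410 and 21992980 counts, with a median of 19964167. TMM scaling factors ranged from 0.989 to 1.01, and the 10 most abundant genes took between 3.25% and 3.49% of the counts of a library. Log2 CPM (counts scaled to 1000000 per library) of any 2 mice correlated across genes with Pearson's r between 0.989 and 0.994, where genes are not independent replicates. No pair of libraries was near identical: the chi-square statistic per degree of freedom was at least 4.61 in the 21 pairs. As the labels state, the mice carried the male transcript Ddx3y, at 1152 to 1405 counts, and Xist stayed at 1 to 8 counts. Since these mice form a single group, no test between groups was run. Differences are given as the number of mice in which they held and as the overlap of ranges. The 1 test criterion used is the 95% critical value of Dixon's ratio, for a mouse that stands apart.

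Marker genes of the hippocampal fields were read first. Levels between genes are compared below in TPM, the per-length measure, which is counts divided by the summed exon length of the gene and scaled to the same total in every mouse. The granule cell marker C1ql2, a synaptic protein of mossy fibres, lay at 303 ± 45.1 TPM (SD, n = 7), and Prox1, the transcription factor that keeps granule cell identity, at 31.0 ± 3.37 TPM. The summed TPM of the 10 granule cell markers ranged from 763 to 1136 with a median of 990, against 118 to 451 with a median of 140 for the 9 measured CA1 markers. The 9 CA3 markers summed to between 586 and 821 TPM, the 8 CA2 markers to between 993 and 1298 TPM, of which Pcp4, a calmodulin-binding protein gene, made up 869 on average, and the 10 markers of thalamus and habenula to a median of 300.3 TPM. Such sums rest on a few abundant members and give no shares of cells or regions. Markers of the choroid plexus were mostly low, with Ttr, its transthyretin gene, at 20 to 120 counts and 8 of the 14 listed genes short of the count rule. Higher on this list were Enpp2 at 63.2 TPM and Kl at 16.2 TPM. The red cell genes Hba-a1 and Hbb-bs were listed at 0 counts in every mouse, but near-identical copies exist for them and featureCounts by default leaves out reads that map to several places, so this says nothing of blood.

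Variation among mice was split into what counting gives and what remains. The total coefficient of variation (CV) of CPM over the 7 mice has a part that follows from the number of counts, and the biological CV is the square root of the squared total CV less this squared counting CV, set to 0 where negative. The median total CV was 8.63%, the median counting CV 4.55% and the median biological CV 6.22%, with quartiles of 3.32% and 11.02%. In 1900 members nothing was left beyond counting. A biological CV over 20% was found in 1389 members (9.46%), over 30% in 534, over 50% in 126 and over 100% in 14. The share was larger among genes with few counts. Of genes with under 50 counts on average 32.1% passed 20%, of those with 200 to 1000 counts 4.26%, and of those above 5000 counts 1.09%. Library preparation and dissection were not repeated within a mouse, so that the biological CV includes both.

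**Figure D1:**
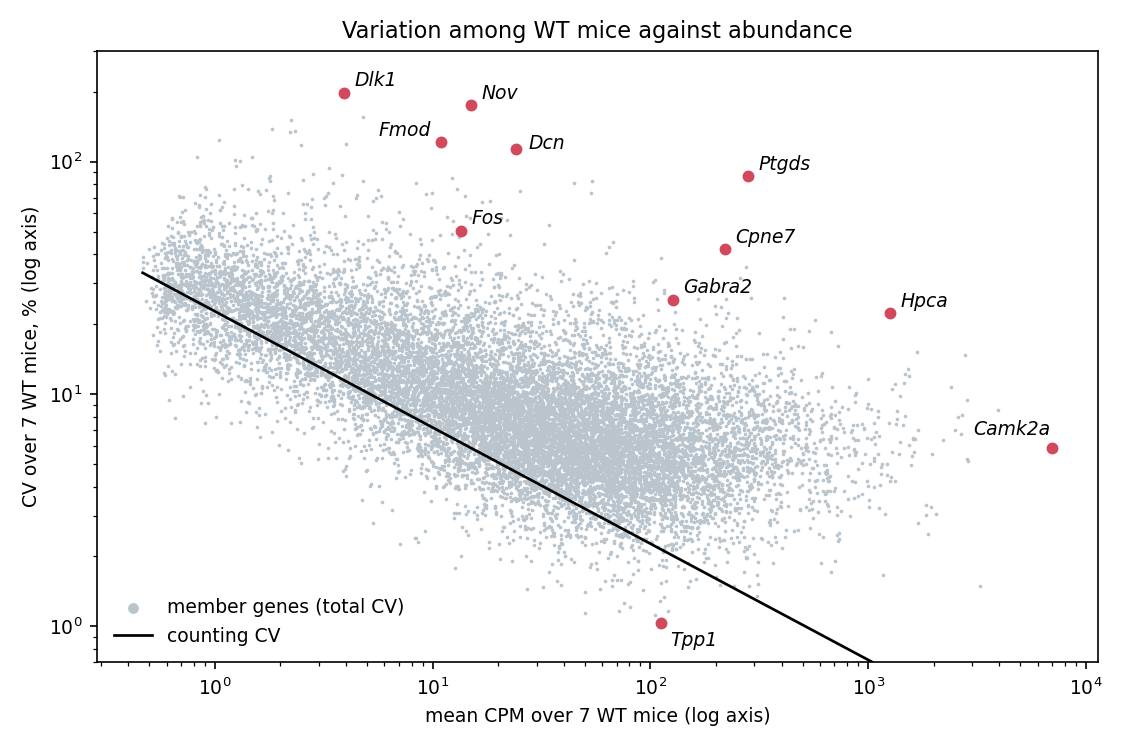
Total CV over the 7 WT mice (%, log axis) against mean CPM (log axis) for the 14686 member genes, with the counting CV as a line and 11 genes named. Most genes follow the line at low levels and lie above it at high levels, Tpp1 lies below it, and Dlk1, Nov, Fmod, Dcn and Ptgds lie far above.

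Abundance was spread over many genes. Of the members, 14269 had a mean above 1 TPM, 10543 above 10, 2423 above 100 and 66 above 1000, and the median was 27.5 TPM. The 100 most abundant genes held 14.9% of all TPM. The highest level was that of Camk2a, the alpha subunit of the calcium/calmodulin-dependent kinase that phosphorylates AMPA receptors in long-term potentiation, at 4069 ± 211 TPM. It was followed by Tmsb4x, the actin-binding thymosin beta 4, at 4048 ± 186 TPM, and the ranges of the pair overlapped. The 20 most abundant genes also held the calmodulin genes Calm2 and Calm3, the sodium pump subunit Atp1b1, and Snap25, a SNARE protein of vesicle fusion. Nrgn, which binds calmodulin in dendrites, lay at 2317 ± 144 TPM, and Apoe, an astrocyte lipoprotein, at 2192 ± 185 TPM. These genes differed little among mice: the biological CV was under 20% in all of the 20 but Hpca, which had 22.3%, or 18.4% without mouse 1. Hpca encodes hippocalcin, a calcium sensor of pyramidal cells, and its level was 1739 TPM in the lowest mouse, 1998 in the median and 2847 in mouse 1, the highest.

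Receptor subunits for the 2 main transmitters kept a nearly fixed order from mouse to mouse. Among AMPA receptor subunits, which carry fast excitation, Gria1 lay at 819 ± 38.6 TPM, Gria2 at 429 ± 24.4 TPM, Gria3 at 156 ± 9.63 TPM and Gria4 at 27.0 ± 3.14 TPM. This order held in 7 of 7 mice at each step, and no 2 neighbouring ranges overlapped, although the gene model of Gria2 ends 3486 bases short of the 3′ end in GENCODE. Of the NMDA receptor genes, the obligatory subunit Grin1 stood at 412 ± 19.8 TPM, above Grin2c at 38.5 ± 3.54 TPM in every mouse. Grin2a and Grin2b, the main GluN2 subunits of forebrain, appear at 2.00 and 1.52 TPM, but the gene models counted end 9812 and 16572 bases short of the 3′ end in GENCODE, so their levels here cannot be set against the other subunits. The kainate receptor subunit Grik5 lay at 232 ± 10.4 TPM in the lead of its family. Grik4, which is typical of CA3, and Grik2 followed at 72.7 ± 14.5 and 72.4 ± 7.80 TPM; Grik4 was the higher in 3 of 7 mice and the ranges overlapped. Their gene models end 2277 and 4630 bases short, which limits the comparison of their levels. Grik3 at 32.9 ± 5.78 TPM and Grik1 at 10.3 ± 1.89 TPM came below in every mouse.

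For GABA-A receptors, the chloride channels of fast inhibition, Gabra5 led with 278 ± 23.03 TPM. The alpha 5 subunit is known for extrasynaptic receptors of the hippocampus. Gabra2 at 165 ± 43.0 TPM and Gabra4 at 157 ± 8.68 TPM had overlapping ranges, and both lay below Gabra5 in every mouse. Gabrb2 at 97.2 ± 5.55 TPM lay above Gabrd, the delta subunit of granule cell tonic inhibition, at 81.3 ± 6.40 TPM in every mouse. Gabra3 at 18.5 and Gabrg1 at 13.6 TPM lay below these on average. Gabrb1 appears at 18.9 TPM, but its gene model ends 11793 bases short of the 3′ end in GENCODE, and that of Gabra2 3460 bases, which limits their place in this order. Gabra6, Gabrg3, Gabre and Gabrq fell short of the count rule. Of the 11 measured subunits 2 had a biological CV over 20%, and 1 without mouse 1, where 9.46% of all members did. Gabra2 was at 73.1 TPM in mouse 1 and between 163 and 205 TPM in the other 6 mice. Gabra3 was at 41.1 TPM in mouse 2 and between 8.36 and 19.8 TPM in the others. Gabra2 belongs to a list of genes known to differ in level between inbred strains, of which 5 of 20 members had a biological CV over 20%, and 3 without mouse 1. The part of strain background was not tested.

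**Figure D2:**
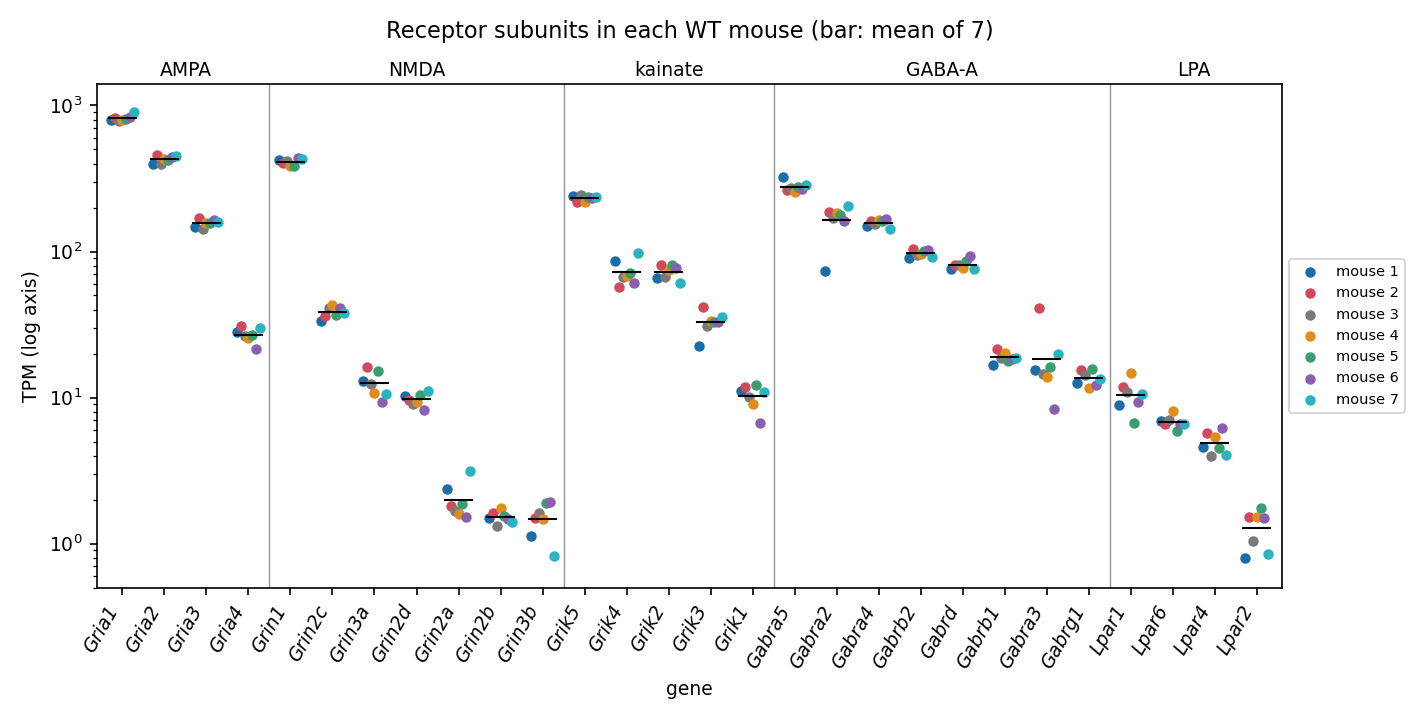
TPM (log axis) of subunits of the AMPA, NMDA, kainate and GABA-A receptors and of the LPA receptors, 1 point per WT mouse and a bar for the mean of 7. The AMPA subunits form separate steps, and Gabra2 in mouse 1 at 73.1 TPM and Gabra3 in mouse 2 at 41.1 TPM lie away from the points of the other mice.

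The LPA receptors, G protein-coupled receptors for a signalling lipid made outside the cell by autotaxin, were expressed at low levels. Enpp2, which encodes autotaxin and also stands on the choroid plexus list, lay at 63.2 ± 11.1 TPM. Lpar1 had the highest level of the receptors at 10.4 ± 2.53 TPM, above Lpar6, whose gene model ends 2936 bases short, at 6.84 ± 0.693 TPM in 7 of 7 mice with overlapping ranges, and Lpar4 followed at 4.92 ± 0.869 TPM. Lpar2, the gene deleted in the other mice of the series, was lowest of the 4 measured members at 1.29 ± 0.378 TPM, its range not overlapping that of Lpar4. Its counts were 27 in the lowest mouse, 45 in the median and 66 in the highest, so that counting alone gives a CV of 14.8%, and the biological CV was 24.5%. Lpar3 and Lpar5 fell short of the rule with 2 to 6 and 1 to 9 counts.

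The steadiest genes varied no more than counting gives. The 10 genes with the smallest total CV among those with at least 1000 counts on average were Tpp1, Suds3, Senp2, Eif4enif1, Brms1l, Rragc, Nub1, Tm9sf4, Ptpra and Nr2c2. Their total CV was between 1.04% and 1.43%, and the biological CV was 0 in 9 of the 10. Tpp1, a lysosomal peptidase, lay at 100.3 ± 1.53 TPM, and Ptpra, a receptor tyrosine phosphatase, at 268 ± 3.28 TPM. Some groups had no member above 20%, against 9.46% of all genes, a share that would leave few in groups of this size. The share is lower still for abundant genes, at 1.80% of those with 1000 to 5000 counts. None of 25 respiratory chain genes, 12 astrocyte markers and 10 markers of oligodendrocyte precursors passed 20%, although 1 astrocyte marker did without mouse 2, 3, 5, 6 or 7. Of 19 genes of synaptic vesicle release, 1 did so, Sv2b, which encodes a vesicle glycoprotein. Its level ranged from 83.0 TPM in mouse 6 over a median of 130 to 214 TPM in mouse 7. Small shifts were still shared within these groups. Mouse 1 was highest for 20 of the 25 respiratory chain genes and mouse 4 lowest for 14. Mouse 4 was also lowest for 13 of the 19 vesicle genes. Of 29 cytosolic ribosomal protein genes, Rps27 passed at 7 to 20 counts, and none did without mouse 3. Ribosomal protein genes share reads with many pseudogenes, which makes their counts uncertain. The 20 circadian clock genes had a median biological CV of 7.94%, with Nfil3 the 1 member above 20%. Without mouse 7 none passed, and without mouse 2, 3, 5 or 6 the count was 3 or 4. The score of the list, the mean log2 CPM of its members less their mean over the mice, stayed between -0.18 and 0.08.

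The largest differences were highest in 3 of the mice. Of the 20 genes with the largest biological CV among those with at least 1 CPM, 9 were highest in mouse 4, 8 in mouse 2 and 3 in mouse 1. Their biological CV ranged from 86.4% to 198%, where the counting CV of these genes was at most 22.2%. A single mouse carried much of this: in 18 of the 20 the CV fell by over 1.5 times when 1 mouse was left out, and in 3 it fell under 20%. Dlk1 fell from 198% to 76.5% without mouse 2, Oip5 from 133% to 25.4% without mouse 4 and AA465934 from 134% to 6.497% without mouse 1. Over all 1389 genes above 20%, mouse 4 was highest in 376, mouse 7 in 263 and mouse 1 in 258, and mouse 5 was lowest in 373 and mouse 6 in 331.

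**Figure D3:**
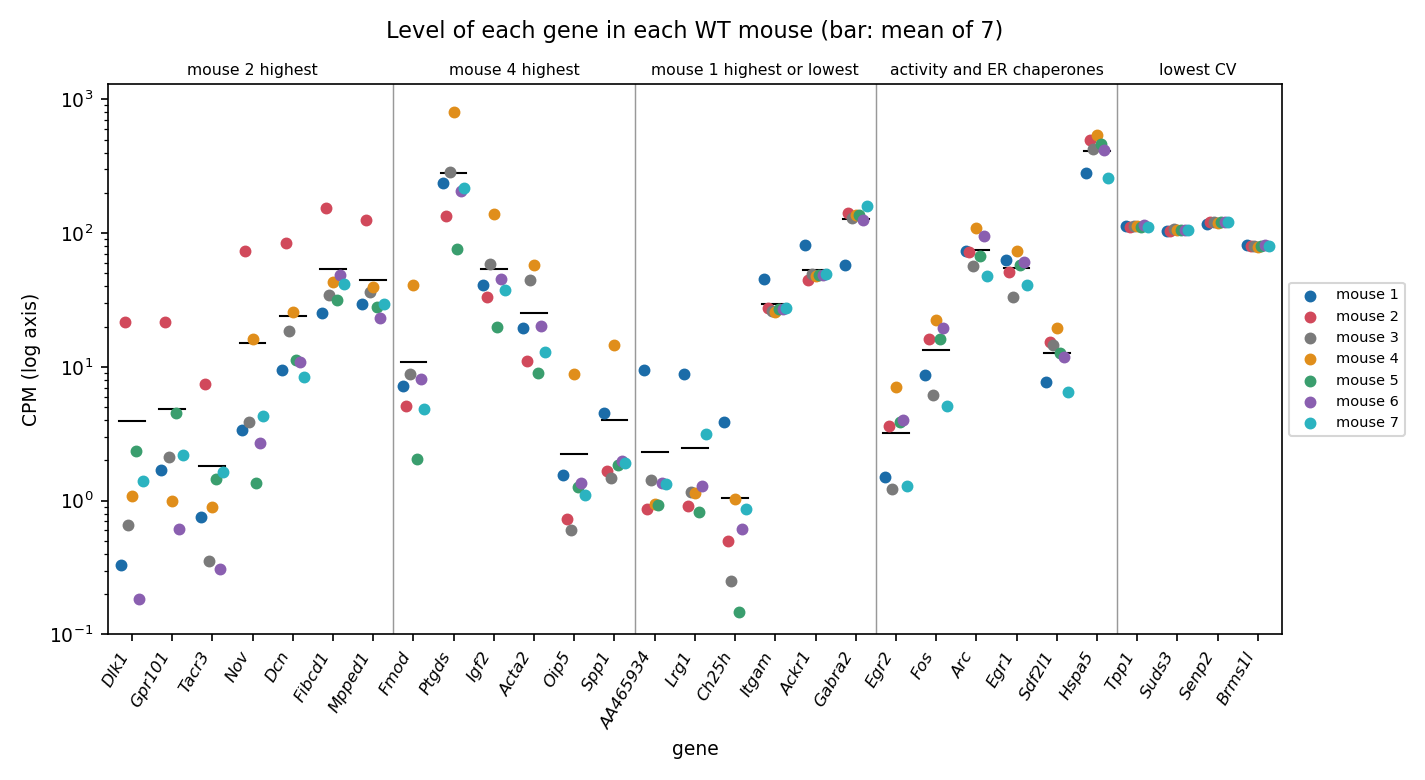
CPM (log axis) of 29 genes in each of the 7 WT mice, with a bar for the mean of 7, grouped by the mouse that is highest or by function. Mouse 2 lies above the other mice for Dlk1 through Mpped1, mouse 4 for Fmod through Spp1 and mouse 1 for AA465934 through Ackr1, while the points of Tpp1, Suds3, Senp2 and Brms1l overlie each other.

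Of the 20 genes with the largest biological CV, the 8 highest in mouse 2 included the gene that varied most of all. Dlk1 (chr12:109452823-109463336, mm10), an imprinted gene for a membrane protein that inhibits Notch signalling, had 3 counts in the lowest mouse, 22 in the median and 474 in mouse 2. This was 19.8 times the median CPM, and no other mouse exceeded 48 counts. Nov (chr15:54745928-54753761), a secreted CCN family protein, had 28 counts in the lowest mouse, 74 in the median and 1618 in mouse 2, with 327 in mouse 4. The orphan receptor gene Gpr101 had 10, 38 and 474 counts in the lowest, median and highest mouse, and Tacr3, the receptor for neurokinin B, had 5, 18 and 164. In all 4 of these genes mouse 2 was the highest, and in 3 of them, as in the serotonin receptor gene Htr2c with 30 counts, mouse 6 was the lowest. Dio3, the deiodinase that inactivates thyroid hormone and, like Dlk1, an imprinted gene of chromosome 12, reached 229 counts in mouse 2 against a median of 50. Ankrd63 and Tpbg were also highest there, with 217 and 229 counts.

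CA1 markers were uneven among the mice. Of 9 members 7 passed 20%, where 9.46% of all members did, and 7 of 9 were highest in mouse 2. The count was 3 of 8 for CA2, 5 of 9 for CA3 and 2 of 10 for granule cells. Fibcd1, a membrane lectin used as a marker of dorsal CA1, had 542 counts in the lowest mouse, 715 in the median and 3383 in mouse 2, which is 102 TPM against at most 31.8 TPM in the other 6. Mpped1, a phosphodiesterase gene, had 378, 627 and 2769 counts. Pou3f1, a POU domain transcription factor, had 28, 40 and 179 counts. Wfs1, the wolframin gene and a common CA1 marker, did not share this: its level ran from 32.4 TPM in mouse 6 over a median of 37.8 to 41.8 TPM in mouse 4, with a biological CV of 8.44%. Dcn, the matrix proteoglycan decorin, stands on both the CA1 and the meningeal list and had 1866 counts in mouse 2 against a median of 231. Without mouse 2 the CA1 list still had 6 members above 20%, but the size of the variation fell. The biological CV went from 82.2% to 22.2% for Fibcd1, from 81.2% to 18.2% for Mpped1 and from 113% to 47.3% for Dcn. The list scored lowest in mouse 6 at -0.63, where the secreted inhibitor gene Spink8 had 4 counts against 35 to 113 in the others. The cortex and subiculum list scored 0.11 in mouse 2 and 0.28 in mouse 4, and the share of dissection in these values was not tested. In bulk tissue, fewer cells of a type and less RNA per cell cannot be told apart, here and in all results that follow.

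Of 10 granule cell markers 2 passed 20%, and 1 without mouse 1 or mouse 7, against 9.46% of all members. These were Trpc6, a cation channel, and Plk5, a polo-like kinase family member of neurons. Trpc6 lay at 27.4 TPM in mouse 7, 55.8 TPM in the median and 73.7 TPM in mouse 4. As a group the granule cell genes scored lowest in mouse 1 at -0.31, where 6 of 10 members had their lowest value, and highest in mouse 6 at 0.24. CA3 markers ran the other way in part: their score was 0.31 in mouse 7, 0.21 in mouse 1 and -0.29 in mouse 2. Of the 9 CA3 members 5 passed 20%, and 2 without mouse 7, against the same 9.46%. Bok, a BCL2 family gene of CA3 cells, lay at 64.9 TPM in mouse 2 and 90.1 TPM in the median mouse and reached 128 and 129 TPM in mice 1 and 7. Cpne7, a calcium-dependent phospholipid-binding protein gene and an abundant one, had 902 counts in mouse 6 and between 2824 and 6391 in the others.

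Of 14 interneuron markers 2 were above 20%, and 1 without mouse 4, 5 or 6. Calb2, the calretinin gene, which interneurons share with mossy cells of the hilus and newborn granule cells, lay at 145 TPM in mouse 2, 217 TPM in the median and 335 TPM in mouse 5. Sst, the somatostatin gene, was lowest in mouse 6 at 251 TPM, with a median of 419 and a highest value of 496 TPM. Among neuropeptides and neurotrophins 7 of 23 members passed 20%, against 9.46% of all members. Adcyap1, the gene for the peptide PACAP, had 119, 148 and 425 counts in the lowest, median and highest mouse, and the highest was again mouse 5. Gal, the galanin gene, ranged from 9 to 43 counts.

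The smaller neuron groups and the tissue beside the hippocampus were looked at in the same way, against 9.46% of all members above 20%. Of 8 CA2 markers 3 passed 20%, against 9.46% of all members, among them Amigo2, an adhesion protein gene that labels CA2, which had 296 counts in mouse 6, 638 in the median and 949 in mouse 5. Of 10 markers of newborn granule neurons 3 did, led by Eomes, a transcription factor of intermediate progenitors, with 64 counts in mouse 6 and 23 to 38 in the others. The thalamus and habenula list had 3 of 10 above 20%, of which Prkcd, a protein kinase C gene, lay at 14.4 TPM in mouse 5, 21.0 TPM in the median and 38.7 TPM in mouse 4. For cortex and subiculum it was 4 of 10, and 2 without mouse 4, where Ctgf, a matrix signalling protein of deep cortical layers and also of fibroblasts, had 231 counts against 53 to 90. Striatal markers had 2 of 10 above 20%, and 1 without mouse 2 or mouse 7. Penk, the enkephalin gene, lay at 38.3 TPM in mouse 7, 60.1 TPM in the median and 67.1 TPM in mouse 6.

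Most genes of the meninges, the membranes on the brain surface, were highest in mouse 4 and lowest in mouse 5. Of 13 meningeal markers 12 passed 20%, against 9.46% of all members, 11 of them highest in mouse 4 and 9 lowest in mouse 5. Ptgds (chr2:25466712-25469749), the prostaglandin D synthase that leptomeninges secrete, had 1551 counts in mouse 5, 3731 in the median and 16339 in mouse 4. This took it from 294 to 3186 TPM, the range of the 20 most abundant genes. Fmod, the matrix proteoglycan fibromodulin, had 42, 131 and 822 counts in the same order of mice, and Igf2, a growth factor of meninges and vessels, had 405, 744 and 2805. The organic anion transporter gene Slc22a6 had 23, 71 and 268 counts. The score of the list was 1.34 in mouse 4 and -1.01 in mouse 5, and Lum, the lumican gene, was the 1 member under 20%. Without mouse 4, 10 of the 13 remained above 20%, and the list score is not among those with a single mouse apart given at the end.

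A part of the vessel genes had the same highest and lowest mouse. Of 9 markers of pericytes and smooth muscle 5 passed 20%, against 9.46% of all members. In each of the 5 mouse 4 was highest and mouse 5 lowest. Pdgfrb, Rgs5 and Kcnj8 of this list did not pass, with a biological CV of 17.8%, 10.4% and 0. Acta2, the smooth muscle actin gene, had 185 counts in mouse 5, 329 in the median, 886 in mouse 3 and 1169 in mouse 4, so that mice 3 and 4 lay apart from the other 5. The same held for Pln, the phospholamban gene, with 113 and 142 counts in these mice and 20 to 36 in the others. Endothelial markers had scores from -0.33 in mouse 5 to 0.32 in mouse 4, and 2 of 10 passed 20%, with 0 without mouse 4, 1 without mouse 5, 4 without mouse 1 or mouse 6 and 5 without mouse 7. Vwf, the von Willebrand factor gene, had 226, 571 and 1380 counts, and here mouse 1 was highest. Other genes highest in mouse 4 were Spp1, the secreted phosphoprotein osteopontin, at 295 counts against a median of 37, and Oip5, a gene for a centromere protein, at 180 against 22. Part of the meningeal list, Col1a1, Col1a2 and Col3a1, encodes fibrillar collagens, all with a biological CV between 62.9% and 67.0%, and between 34.7% and 38.9% without mouse 4.

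**Figure D4:**
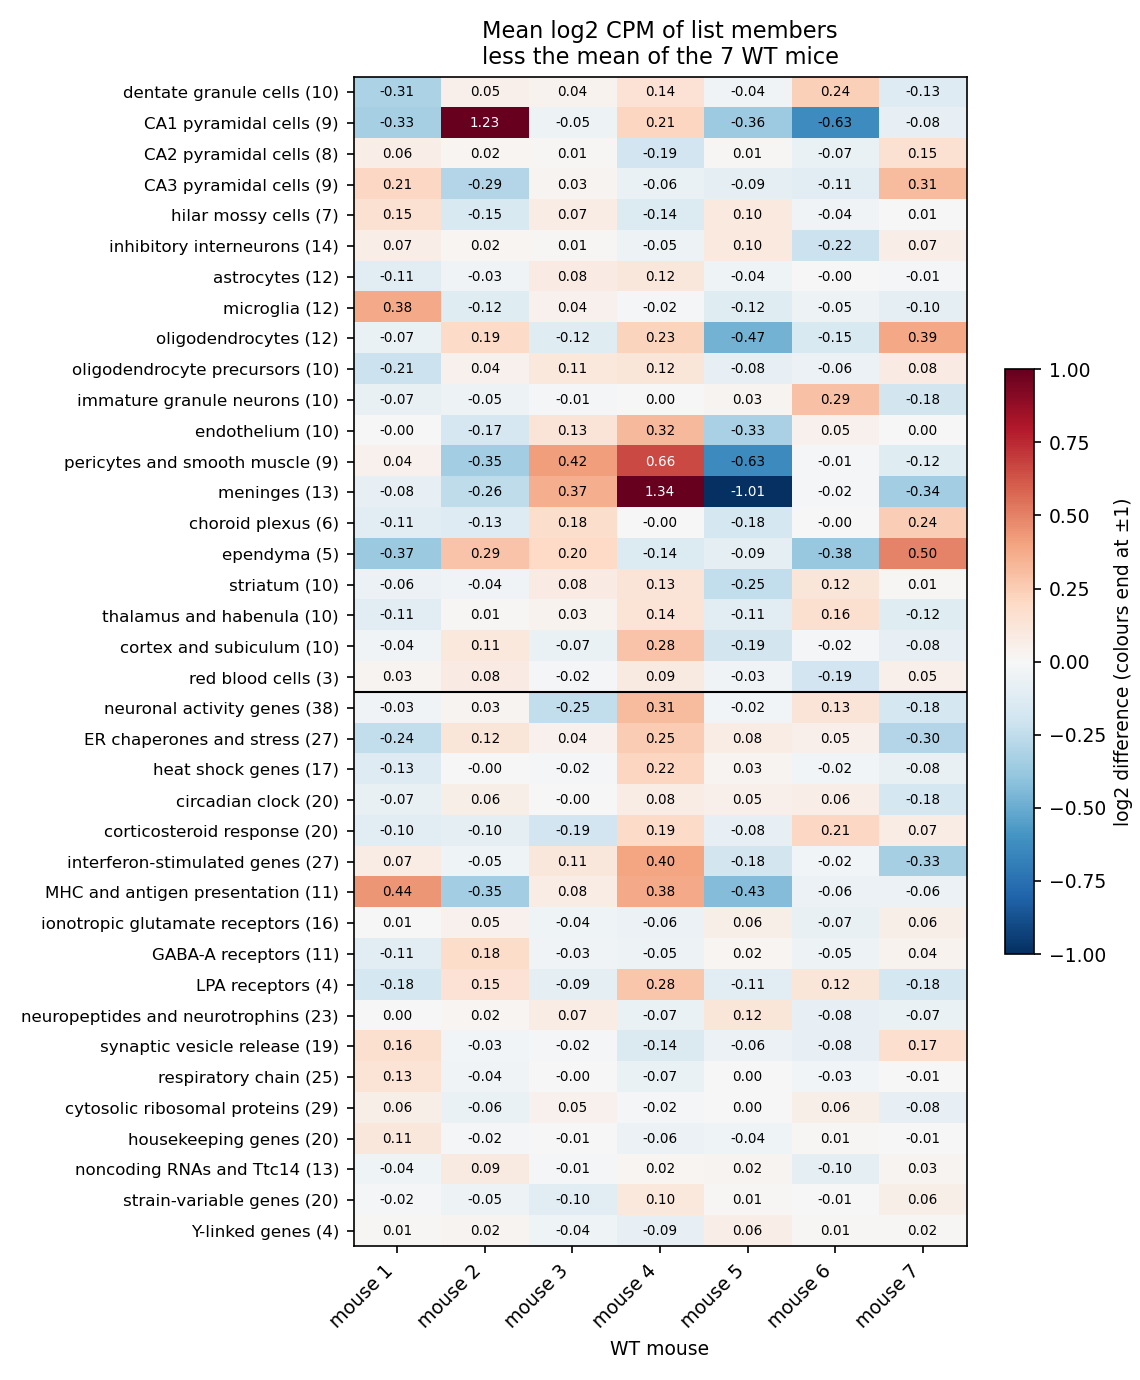
Score of each gene list in each WT mouse, that is the mean log2 CPM of its members less their mean over the 7 mice, with the number of members in brackets. The strongest values are those of meninges in mouse 4 (1.34) and mouse 5 (-1.01) and of CA1 markers in mouse 2 (1.23), and the rows for respiratory chain, ribosomal proteins and glutamate receptors stay near 0.

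Microglial markers scored highest in mouse 1. Of 12 microglial markers 10 had their highest value there, and 5 passed 20%, against 9.46% of all members. All 5 were highest in mouse 1, as were 18.6% of all genes above 20%, and without that mouse none passed. C1qa, C1qb and C1qc, which encode the chains of complement C1q, and Ctss, the lysosomal protease cathepsin S, were among them. C1qa lay at 88.0 TPM in the lowest mouse, 97.3 in the median and 154 in mouse 1, and Ctss at 105, 115 and 196 TPM. The homeostatic markers did not share the difference: P2ry12, a purine receptor, lay between 50.7 and 60.8 TPM and Cx3cr1, the fractalkine receptor, between 39.3 and 46.8 TPM in the 7 mice. Itgam, the integrin alpha M chain of myeloid cells, had 442, 523 and 975 counts. Lrg1, a glycoprotein of the acute-phase response, had 189 counts in mouse 1, 54 in mouse 7 and 17 to 23 elsewhere. Ch25h, which makes 25-hydroxycholesterol in activated macrophages, had 3, 11 and 83 counts. Lcn2, the acute-phase protein lipocalin 2, fell short of the rule and had 440 counts in mouse 1, 234 in mouse 7 and 2 to 11 in the other 5. AA465934 (chr11:83291699-83294637), a transcript of no known function, had 201 counts in mouse 1 and 19 to 28 in the others.

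Genes of antigen presentation by MHC class II were high in mice 1 and 4. Cd74, the invariant chain, had 91 and 76 counts there and 9 to 23 in the other 5 mice. H2-Eb1, a class II beta chain, had 6, 20 and 49 counts. Class I genes differed less, with H2-K1 at a biological CV of 15.9% and B2m, the common light chain, at 11.5%. Interferon-stimulated genes scored highest in mouse 4 at 0.40 and lowest in mouse 7 at -0.33. Of 27 members 10 passed 20%, 8 of these 10 highest in mouse 4, and 4 passed without that mouse. Among all genes above 20%, 27.1% were highest in mouse 4. The meningeal and smooth muscle lists scored 1.34 and 0.66 there, and their part in the interferon values was not tested. Of all members 9.46% passed, but 32.1% of those with under 50 counts and 16.8% of those with 50 to 200 did, and no interferon gene that passed had a mean of over 200 counts. These were low in level, with a list median of 3.97 TPM, and Oas2, an antiviral oligoadenylate synthase gene, had 9 to 42 counts.

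Genes known to differ between inbred strains were looked at because the colony is of mixed background. Of the 20, 5 passed 20%, against 9.46% of all members. Of these 5, 3 were lowest in mouse 1, among them Gabra2, described above, and Wdfy1, an endosomal protein gene. Wdfy1 lay at 17.7 TPM in mouse 1, 36.9 TPM in the median and 40.5 TPM in mouse 4. Nnt, the mitochondrial transhydrogenase gene, had the same lowest mouse, at 17.7 TPM against 26.2 to 33.8 in the others, with a biological CV of 17.6%, or 7.02% without mouse 1. Erdr1, a gene at the end of the sex chromosomes, had 25 counts in mouse 3, 82 in the median and 199 in mouse 1. In both Wdfy1 and Nnt mouse 1 thus lay below a group of 6, while Erdr1 was spread over all mice.

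Myelin genes shared a lowest mouse and, for most of them, a highest mouse. All 12 oligodendrocyte markers were lowest in mouse 5 and 9 were highest in mouse 7, with scores of -0.47 and 0.39. Of the 12, 6 passed 20%, against 9.46% of all members, 8 without mouse 1 or mouse 4 and 3 without mouse 7. Mbp, myelin basic protein, lay at 271 TPM in the lowest mouse, 327 in the median and 430 in the highest, and Mal, a raft protein of myelin, at 57.8, 83.4 and 135 TPM. Precursor markers did not follow, their list having no member above 20% and scores from -0.21 to 0.12. Ependymal markers were low in level, and 4 of 5 passed 20%, 2 without mouse 1.

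Promoters of 4 gene lists, the activity, ER chaperone, heat shock and clock genes, were searched for 6 motifs. The 4 lists all scored highest in mouse 4, at 0.31, 0.25, 0.22 and 0.08. This was not particular to them, since the astrocyte, oligodendrocyte precursor, interferon and meningeal lists, among others, also scored highest there. For the clock list mice 6 and 2 lay close, at 0.064 and 0.062, and 5 of 20 members were highest in mouse 4. Part of the promoters of the activity and ER chaperone lists is shown here, in which 16 of 38 and 21 of 27 members were highest in mouse 4. Sequences are from RefSeq on GRCm38.p6 and cover the 250 bases before the start of the gene, read along its strand. The first pair are of endoplasmic reticulum (ER) chaperones, and capitals mark the ER stress element, CCAAT and CCACG with 9 free bases between them, which binds ATF6 and NF-Y when unfolded proteins gather.
Hspa5: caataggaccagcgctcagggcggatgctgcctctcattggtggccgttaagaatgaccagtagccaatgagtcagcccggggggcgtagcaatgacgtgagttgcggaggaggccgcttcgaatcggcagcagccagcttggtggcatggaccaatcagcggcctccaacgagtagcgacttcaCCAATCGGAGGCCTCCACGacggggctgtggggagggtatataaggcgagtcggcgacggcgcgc
Creld2: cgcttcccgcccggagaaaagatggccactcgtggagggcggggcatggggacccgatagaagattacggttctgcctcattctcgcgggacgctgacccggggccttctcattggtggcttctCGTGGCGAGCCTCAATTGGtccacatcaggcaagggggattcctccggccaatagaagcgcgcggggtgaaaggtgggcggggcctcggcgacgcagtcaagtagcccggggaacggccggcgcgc
The second pair are of activity genes, and capitals mark the full cyclic AMP response element (CRE), TGACGTCA, to which CREB binds.
Dusp1: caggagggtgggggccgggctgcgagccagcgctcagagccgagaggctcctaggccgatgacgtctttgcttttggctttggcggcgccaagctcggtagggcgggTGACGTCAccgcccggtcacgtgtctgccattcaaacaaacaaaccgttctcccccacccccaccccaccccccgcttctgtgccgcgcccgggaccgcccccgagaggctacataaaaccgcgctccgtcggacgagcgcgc
Btg2: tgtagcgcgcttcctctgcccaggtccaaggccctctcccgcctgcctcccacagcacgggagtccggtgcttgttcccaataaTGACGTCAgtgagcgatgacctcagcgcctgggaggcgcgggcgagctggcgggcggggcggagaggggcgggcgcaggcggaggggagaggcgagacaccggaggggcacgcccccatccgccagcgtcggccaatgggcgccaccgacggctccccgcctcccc
The Hspa5 window is chr2:34771840-34772089 on the plus strand, with the element 65 to 47 bases before the start. That of Creld2 is chr15:88819396-88819645 on the plus strand, and the element lies there on the opposite strand, 126 to 108 bases before the start. The windows of Dusp1, chr17:26508473-26508722, and Btg2, chr1:134079156-134079405, are on the minus strand, and their CREs lie 143 to 136 and 166 to 159 bases before the start.

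The ER stress element was found, on either strand, in 8 of the 23 chaperone and stress genes that have an entry, or 34.8%. They were Hspa5, Hsp90b1, Pdia6, Calr, Canx, Dnajc3, Creld2 and Syvn1. It was held by 0.113% of the 32851 windows of that length. Among the member genes 0.144% hold it, which are 16 genes with these 8 among them. The list was picked for the ER stress response and the element is named for that response. Its higher share in the list thus follows from the choice and is no independent result. The CRE was found in Btg2, Dusp1, Arl4d and Pcsk1, 4 of the 28 activity genes with an entry or 14.3%, in 1.55% of all windows and in 2.94% of those of the member genes. Of the other motifs in the activity genes, the E-box CACGTG was found in 6 of 28 or 21.4%, against 9.71% of member genes, the CArG box of serum response factor in 2 of 28 or 7.14%, against 1.42%, and the EGR site GCGTGGGCG in none, against 1.17%. The D-box, TTATGTAA or TTATGCAA, was found in 2 of 28, against 1.34%, and the ER stress element in none. Of the 23 chaperone and stress genes, 2 held the E-box, 1 the CRE and 1 the D-box. The E-box was found in 5 of 17 clock genes or 29.4%, the D-box in 2 and the CRE in 1, and of 13 heat shock genes 2 held the E-box and 1 the EGR site. The chaperone, clock and heat shock lists had no match of the motifs not named here for them. The matches of the chaperone genes, written along the element, differ in their 9 middle bases.
Hspa5: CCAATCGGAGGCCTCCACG
Pdia6: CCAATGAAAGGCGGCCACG
Canx: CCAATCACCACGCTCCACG
Dnajc3: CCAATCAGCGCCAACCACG
Creld2: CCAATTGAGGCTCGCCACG
Syvn1: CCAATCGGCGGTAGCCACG
Calr: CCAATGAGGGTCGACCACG
Hsp90b1, farther from the start: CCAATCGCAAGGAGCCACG
Hsp90b1, nearer the start: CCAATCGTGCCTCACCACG
A match is a description of the sequence and no evidence that a factor was bound in these mice. Lists and motifs were both picked by hand, so none of these shares is an independent result.

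Of 27 ER chaperone and stress genes 8 passed 20%, against 9.46% of all members. They were Sdf2l1, Atf3, Creld2, Manf, Hspa5, Pdia4, Xbp1 and Pdia6. On the CPM scale mouse 4 was highest, mouse 7 lowest and mouse 1 next to lowest in all 8, by a small margin for Pdia4, a disulphide isomerase. Of these 8, Hspa5, Pdia6 and Creld2 have the element in the window searched. Hspa5, the lumenal chaperone BiP, had 4451 counts in mouse 7, 8386 in the median and 10953 in mouse 4, which is 307, 504 and 657 TPM. Sdf2l1, part of a chaperone complex with BiP, lay at 18.2, 36.0 and 56.0 TPM and Manf, a secreted ER protein with neurotrophic action, at 39.1, 71.6 and 94.1 TPM. Xbp1, the transcription factor whose mRNA is spliced in ER stress, lay at 77.3, 139 and 158 TPM. Over the whole list, 21 of 27 members were highest in mouse 4 and 15 lowest in mouse 7, and the score ran from -0.30 to 0.25. Among all genes above 20%, 27.1% were highest in mouse 4. The meningeal, smooth muscle and endothelial lists also scored highest there, at 1.34, 0.66 and 0.32. Their part in the values of the chaperone and stress genes was not tested. Without mouse 7, 4 of the 27 passed 20%. Of the heat shock genes of the cytosol, which answer to HSF1, 1 of 17 passed, and 2 without mouse 2, 3 or 6, the first being the small heat shock gene Hspb1 with 10, 27 and 64 counts.

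Of 38 activity genes 17 passed 20%, against 9.46% of all members. Mouse 4 was also highest in 27.1% of all genes above 20% and for the meningeal, smooth muscle and endothelial lists, with scores of 1.34, 0.66 and 0.32, and their part in these values was not tested. Of the 17, 13 were highest in mouse 4 and 6 each were lowest in mouse 3 and in mouse 7. Fos (chr12:85473901-85477270), a component of the AP-1 factor, had 88 counts in mouse 7, 122 in mouse 3, 320 in the median and 451 in mouse 4, a biological CV of 50.2%. Egr2, a zinc finger factor, had 22 to 32 counts in mice 1, 3 and 7 and 65 to 142 in the other 4. Arc, which encodes a capsid-like protein that regulates AMPA receptor uptake, had 830, 1555 and 2190 counts in the lowest, median and highest mouse. Egr1 had 657, 1128 and 1499 counts and Npas4, a factor specific to neurons, 138, 245 and 347. Fos, Egr2, Arc, Egr1 and Npas4 thus had the same highest mouse and the same pair of lowest mice, which the 17 as a whole did not. Among the 17, mice 1, 2, 6 and 7 were highest for 1 gene each. Mouse 1 was lowest for 3 and mice 5 and 6 for 1 each. Ptgs2, the cyclooxygenase 2 gene, was the 1 highest in mouse 1, with 1375 counts there and a median of 716. Bdnf, a neurotrophin, had a biological CV of 18.8%, or 10.98% without mouse 1, and Homer1, a postsynaptic scaffold, one of 9.67%, whereas Pcsk1, a prohormone convertase, had one of 26.2%, or 15.98% without mouse 6. Dusp1, a phosphatase of MAP kinases, had 168, 233 and 326 counts, and Btg2, an antiproliferative gene, had 595, 796 and 1035, a biological CV of 13.5%.

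Genes of the corticosteroid response did not follow 1 mouse. Of 20 members 5 passed 20%, against 9.46% of all members, with Plin4, a lipid droplet protein, at 162 counts in mouse 7 against a median of 49. Tsc22d3, the glucocorticoid-induced leucine zipper, had a biological CV of 21.9%. The other 3 were Hif3a, Sult1a1 and Cdkn1a. Fkbp5, a chaperone that dampens the glucocorticoid receptor, was steady at 100.1 ± 5.19 TPM with a biological CV of 4.72%, and Sgk1, a kinase induced by corticosteroids, had 15.6%.

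A single mouse stood apart in 801 genes (5.45%) by Dixon's ratio, the gap between an extreme mouse and its neighbour over the whole range of log2 CPM, above its 95% critical value for 7 mice. About 1 in 20 genes would pass by chance, so the count is near that share. The mouse was mouse 1 in 238 of them, mouse 7 in 169, mouse 6 in 128 and another in 44 to 77 each. In 104 of the 801 the biological CV was also above 20%. Of the 10 such genes with the largest ratio and at least 1 CPM, 7 concerned mouse 1. They were Itgam, Ackr1, AA465934, Ly86, Nppc and Cd14, all high there, and Gabra2, which was low. Ackr1, the atypical chemokine receptor of vessels and red cells, lay at 121 TPM in the lowest mouse, 133 in the median and 214 in mouse 1. Of the other 3, Nxph3, a ligand of neurexins, was high in mouse 2 with 133 counts against a median of 47, Frmpd3 was low in mouse 6 with 14 against 60, and Pttg1, the securin gene, was low in mouse 5 with 180 against 369.

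In 14 genes with at least 20 counts on average the mice fell into 2 levels, defined as a largest gap of at least 1 log2 unit with 2 or more mice on either side, and without mouse 2 or mouse 4 the number was 7. The clearest was Gm15446 (chr5:109933563-109941710), a predicted zinc finger gene. It had no count in mice 3 and 7 and 26 to 64 counts in the other 5, where 0 counts allow up to 3. Cd74, Pln and Acta2, described above, were high in 2 mice each, as was Hs3st2, a heparan sulphate sulphotransferase gene, in mice 2 and 7. Serpina3g, a serine protease inhibitor gene, was low in mice 5 and 6 with 6 counts each and had 20 to 59 in the others. Krt5, a keratin gene, was low in mice 2 and 6 with 11 and 9 counts and had 27 to 50 in the others. Gbp2b, a guanylate-binding protein gene of the strain list, fell short of the rule and had 42 counts in mouse 1, 1 in mouse 7 and none in the other 5.

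The first 3 principal components of log2 CPM took 27.5%, 22.04% and 17.3% of the variance. Component 1 set mice 1 and 7, at 19.6 and 17.1, against mice 4 and 6, at -16.9 and -14.0. Genes with the largest weights toward mice 1 and 7 included Vgll3, a cofactor of TEAD factors, with 5 counts in mouse 6 and 254 in mouse 5, Lrg1, AA465934 and Cpne7. Toward mice 4 and 6 they included Egr2, Fos, Hspb1 and Thbs4, a thrombospondin. Component 2 set mice 5 and 2, at 18.9 and 16.2, against mice 4 and 1, at -13.3 and -10.5. Dlk1, Gpr101, Tacr3, Dio3 and Htr2c led it on the side of mice 5 and 2 and Fmod, Slc13a4, Slc22a6, Ptgds and Vwf on the other. Mouse 3 lay nearest the origin of the plane they span.

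**Figure D5:**
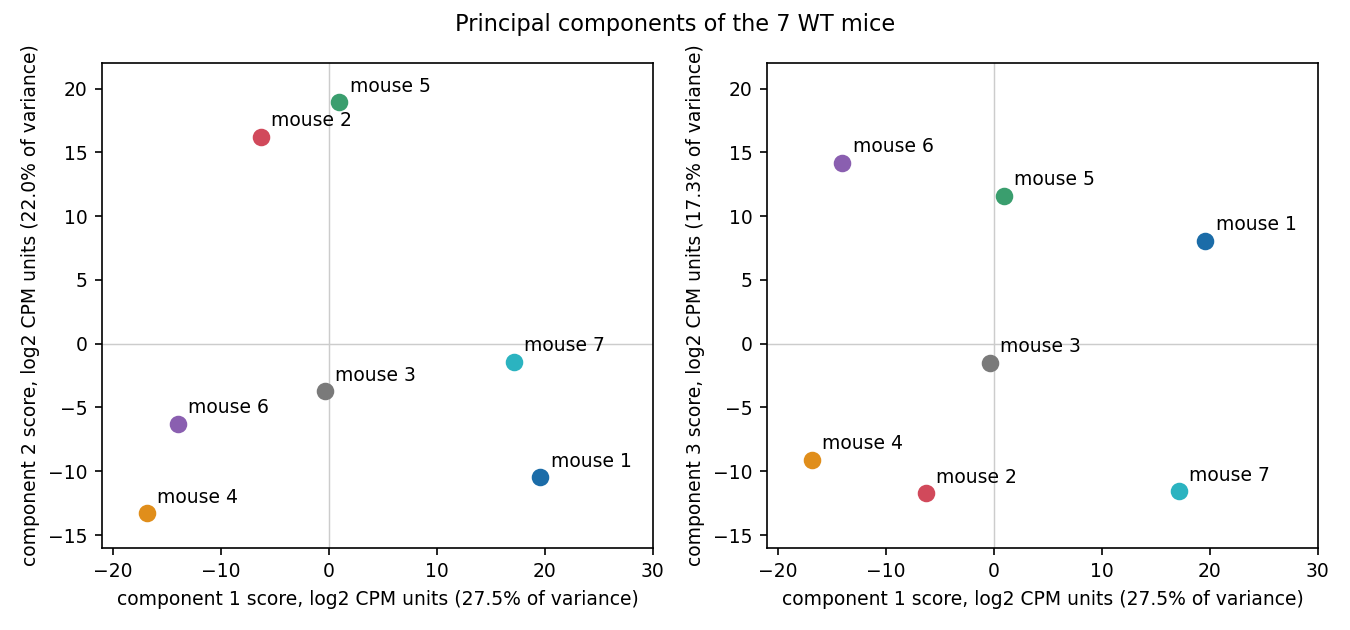
Scores of the 7 WT mice on components 1 and 2 (left) and 1 and 3 (right) of log2 CPM over all member genes, 1 labelled point per mouse. Mice 1 and 7 lie right of mice 4 and 6 on component 1, and mice 5 and 2 lie above mice 4 and 1 on component 2.

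Genes that lie side by side varied together somewhat more often than genes on different chromosomes. Among genes above 20% with at least 20 counts on average, 31 of 968 pairs whose starts lay within 1 Mb, or 3.20%, had a correlation over the mice above 0.9, against 1.42% of pairs on different chromosomes. The pairs included C1qa with C1qb and C1qc, the transporter genes Slc6a13 and Slc6a12, the zinc finger genes Zic1 and Zic4, and the vesicle genes Doc2b and Rph3al. Doc2b, a calcium sensor of vesicle release, lay at 89.9 TPM in mouse 1, 178 TPM in the median and 213 TPM in mouse 2. Lpar2 formed such a pair with Tm6sf2, a membrane protein gene of lipid handling, which had 48, 121 and 173 counts. Pairs within 5 Mb gave 1.82%. Without mouse 7 the share within 1 Mb was 5.01%, against 2.52% on different chromosomes.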

How the data were processed

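RNA-seq counts of 7 WT hippocampi were analysed. Per the labels and the study's methods, the authors used cutadapt 1.18 for adapter removal, STAR for alignment (build mm10) and featureCounts 1.6.3 for reverse-stranded counts summed over the exons of each gene in UCSC gene models. The labels name a TruSeq kit without stating depletion, which the methods give. The deposited values used here are these raw counts; a second deposited table, normalised by the authors with DESeq2 1.22.2, was not used. Library totals and the filter of 10 counts in 5 mice are given above. Counts were scaled by TMM in edgeR 4.0.16 (R 4.3.3) to CPM, log2 CPM used a prior count of 2, and TPM was computed over all 24421 rows from the gene length in the table. DESeq2 1.42.0 gave alternative size factors. Python scripts used numpy 2.4.6, pandas 2.3.3, scipy 1.17.1 and matplotlib 3.10.9, and were tested on simulated data.

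Genes were named by rule: the 20 highest mean TPM, the 20 largest biological CVs at 1 CPM or more, the 10 smallest total CVs at 1000 counts or more, the 10 largest Dixon ratios among genes above 20% at 1 CPM or more, the 10 largest gaps between 2 levels, the 10 largest weights in each direction on components 1 and 2, and members of the gene lists. Genes named outside these rules, such as those in neighbouring pairs, were chosen after their values were seen. Some genes are not reported here. Members and lists were chosen with earlier results of these data known. Intervals from counting cover counting error only.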

Additional observations from a re-analysis of the deposited data

Results flagged for a closer look

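Among the 167 genes named above, a single mouse stood apart in 24 by Dixon's ratio of the gap to the range of log2 CPM above its 95% critical value for 7 mice, and about 1 in 20 such groups passes by chance. Many of these genes were chosen for this ratio or for a large CV, so that their number is no result. Mouse 1 was the mouse apart in 12 of the 24. Its values were high for Itgam at a ratio of 0.891, Ackr1 at 0.805, AA465934 at 0.801, Ly86 at 0.791, Nppc at 0.768, Cd14 at 0.765, C1qc at 0.688, C1qa at 0.639 and Ctss at 0.585, and low for Gabra2 at 0.769, Nnt at 0.608 and Wdfy1 at 0.571. Mouse 2 was high for Nxph3 at 0.805, Mpped1 at 0.69, Tpbg at 0.641, Fibcd1 at 0.64 and Ankrd63 at 0.575. Mouse 6 was low for Frmpd3 at 0.881 and Spink8 at 0.608, mouse 5 was low for Pttg1 at 0.833, and mouse 4 was high for Ctgf at 0.695 and Oip5 at 0.667. Mouse 6 was high for Eomes at 0.618 and for Tpp1 at 0.573, of which the latter is a gene whose total CV over the mice of 1.04% is below its counting CV of 2.14%.

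Of the 38 list scores 4 had a mouse apart. Mouse 1 was high for microglia at a ratio of 0.672, respiratory chain at 0.66 and housekeeping genes at 0.61, with scores of 0.38, 0.13 and 0.11. Mouse 6 was low for the 3 measured red blood cell genes at 0.572, with a score of -0.19.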

How the results depend on the processing

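Scaling by DESeq2 size factors or by the upper quartile moved the median CV, the share of component 1 and the counts of genes above 20%, with a mouse apart and at 2 levels by less than 1.5 times, and all 106 named genes above 20% stayed there with DESeq2 size factors. By edgeR's tagwise dispersion, which shrinks genes toward a common value, the median CV was 8.63% and 89 of the 106 stayed above 20%. With no filter on low counts, 3447 genes were above 20%, 1840 had a mouse apart and component 1 took 22.7% of the variance. Genes scaled to unit SD gave 32.0% for component 1. A threshold of 30% left 534 genes. Genes at 2 levels numbered 8 with at least 10 counts in every mouse and 172 with a gap of 0.5. Neighbouring pairs made 7.44% at r over 0.8, against 4.74% on different chromosomes, and 1.82% within 5 Mb.

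Leaving out each mouse in turn gave a median biological CV of 5.50% to 6.42%, 1221 to 1508 genes above 20%, 29.7% to 34.0% of variance on component 1, 737 to 1029 genes with a mouse apart, 7 (without mouse 2 or 4) to 14 genes at 2 levels, and 4.07% to 5.01% of neighbouring pairs, against 1.82% to 2.68% on different chromosomes. Of the 106 named genes, 66 stayed above 20% in every such run, and 17 were lost without mouse 1. The counts of list members with a mouse left out were added after seeing the data. No paired analysis was possible because the mice form a single group, and no test between groups was run. Genes with few counts have a biological CV that 7 libraries estimate poorly.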

Other observations

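The 7 LPAR2-/- mice of the series give a second set in which to look at which genes vary, with no comparison of levels. Among the 11556 member genes with at least 100 counts on average in the WT mice, 498 had a biological CV above 20% in the WT mice. Of these, 319 or 64.1% were above 20% among the LPAR2-/- mice too, which is 42.5% of the 751 genes above 20% there. Across these genes the biological CV of the pair of groups had a Spearman's rho of 0.49, a description over genes that share abundance, length and dissection. The median biological CV over the member genes was 7.08% among the LPAR2-/- mice.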
